A study of Macaca fascicularis with 8 samples.

Results

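The genes of cytosolic ribosomal proteins were followed in embryonic stem cells (ESCs) of the cynomolgus monkey. A row of the expression table was taken when its best protein match was described as a 40S or 60S ribosomal protein with at least 85% identity, and each protein name kept the row with the highest mean over the 8 libraries. This gave 78 genes of the 33121 in the table, 31 for the 40S subunit and 47 for the 60S subunit. The other 276 rows with such a match were counted as likely copies, 102 for 40S and 174 for 60S names. Of these copies, 210 had a mean under 1 RPKM (reads scaled to the length of the gene and the depth of the library) and 15 reached 100 RPKM.

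The study compared polyadenylated RNA of 4 primed and 4 dome-shaped ESC libraries. Primed ESCs formed flat colonies in a mixture of a commercial human pluripotent stem cell medium and a conventional monkey ESC medium, and were labelled weak in passage as single cells. Dome-shaped ESCs were labelled strong in single-cell passage and grew in knockout DMEM with AlbuMAX, N2 supplement, insulin, glutamine, nonessential amino acids, β-mercaptoethanol, vitamin C, LIF (10 ng/ml), basic fibroblast growth factor (8 ng/ml) and TGF-β1 (1 ng/ml), plus the kinase inhibitors PD0325901 (MEK, 1 µM), CHIR99021 (GSK3, 3 µM), SB202190 (p38, 5 µM), SB203580 (p38, 10 µM) and SP600125 (JNK, 10 µM). Medium, colony shape, passage behaviour and group coincide and cannot be told apart. The sample titles carry a number after CES, which is 1, 2, 3 and 3 in primed replicates 1 to 4. It is 1, 1, 2 and 3 in dome-shaped replicates 1 to 4, and the labels do not say what it stands for. Dome-shaped replicates 1 and 2 share this number but differ in a further mark of their titles. The titles of primed replicate 4 and dome-shaped replicate 4 differ only in their last letter. These further marks were not used in the fits. The labels do not say that libraries of a group came from separate cultures, so a p-value measures only the spread between these libraries, which may be technical.

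The ribosome joins a small 40S subunit, which holds the messenger RNA and reads its codons, to a large 60S subunit, which forms the peptide bond. Each subunit holds 1 copy of most of its proteins, so the genes are transcribed together at high levels in growing cells. Their messenger RNAs begin with a terminal oligopyrimidine (TOP) tract, which lets mTOR signalling control their translation.

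The libraries held 14401000 to 18076000 reads as implied by the steps of the RPKM values, and 15141 to 15830 rows at 1 RPKM or more. On the first principal component over all tested rows, dome-shaped replicate 4 scored 9.92, between the primed libraries (-37.0 to -28.6) and dome-shaped replicates 1, 2 and 3 (40.7 to 41.1). Of 11 pluripotent stem cell markers, 7 fell, with a summed level of 3265 to 3915 RPKM in the primed and 2157 to 3232 RPKM in dome-shaped libraries. Of 6 tested fibroblast markers, ACTA2 was higher and PDGFRB lower, and the summed level of the 11 found spanned 36.6 to 129 and 43.8 to 119 RPKM. DCN was listed at 0 in all but 1 library of each group. COL1A2 and THY1 reached 53.3 and 52.2 RPKM in primed replicate 1, and ACTA2 82.2 RPKM in dome-shaped replicate 2. Among markers of other lineages, FABP7 of 3 neural genes was higher, FOXA2 of 4 endoderm genes and KRT7 and HAND1 of 4 trophoblast genes were lower, and 0 of 3 mesoderm genes were called. The summed levels of these lists spanned 207 to 425 RPKM in the primed and 229 to 341 RPKM in dome-shaped libraries for neural genes, 34.5 to 81.6 and 2.26 to 34.1 RPKM for endoderm, 20.3 to 86.4 and 4.92 to 10.1 RPKM for trophoblast, and 18.1 to 75.1 and 7.52 to 51.6 RPKM for mesoderm. The part of such differences between the cultures in the ribosomal protein results was not tested, and in bulk samples fewer cells of a type and less RNA per cell cannot be told apart.

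The ribosomal protein genes were among the most abundant transcripts of both kinds of culture. They took 9.44% to 9.89% of the summed RPKM in the primed libraries and 9.72% to 12.3% in the dome-shaped ones. Of the 78 genes, 72 passed the filter for testing of at least 1 RPKM in at least 4 libraries, 27 of the 40S and 45 of the 60S subunit. Tested 40S genes had means of 134 to 2672 RPKM (median 1131), and 60S genes 8.48 to 1818 RPKM (median 915). RPS20, a protein of the 40S head, had the highest mean, with 3019, 2394, 2515 and 2245 RPKM in primed replicates 1 to 4 and 3149, 2457, 2554 and 3044 RPKM in dome-shaped replicates 1 to 4. The groups overlapped for RPS20, and its highest values lay in dome-shaped replicates 1 and 4 and primed replicate 1.

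The 6 untested rows, named for RPS7, RPS9, RPS16, RPS23, RPL10A and RPL17, had means of at most 0.732 RPKM. For each of them a row outside the description rule carried the gene's own name at a far higher level, such as RPS16 at 1252 ± 39.8 RPKM in the primed and 1313 ± 151 RPKM in dome-shaped ESCs (SD, n = 4). The row of the rule was thus the lower of the rows for these proteins. The same held for some tested rows, including those named for RPL37, RPL7A, RPL36A and RPS2.

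One dome-shaped library stood apart in these genes. The summed level of the 40S genes was 31374, 30415, 29830 and 30569 RPKM in primed replicates 1 to 4 and 38684, 29844, 31553 and 34126 RPKM in dome-shaped replicates 1 to 4. The 60S genes summed to 35098, 34543, 32847 and 34542 RPKM in the primed and to 46131, 34575, 36945 and 38812 RPKM in dome-shaped libraries. Dome-shaped replicate 1 was the highest library and dome-shaped replicate 2 lay within the primed range for both subunits. Replicate 1 held the highest of the 8 values for 60 of the 72 tested genes, against 23.5% of all tested rows. The number of genes above every primed library was 63 in dome-shaped replicate 1, 21 in replicate 2, 43 in replicate 3 and 54 in replicate 4. The number below every primed library was 1, 15, 3 and 0 in the same order. Neither count was made over all tested rows. The median coefficient of variation of a gene was 5.23% among primed and 12.3% among dome-shaped libraries, and 6.50% among dome-shaped libraries without replicate 1.

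**Figure D1:**
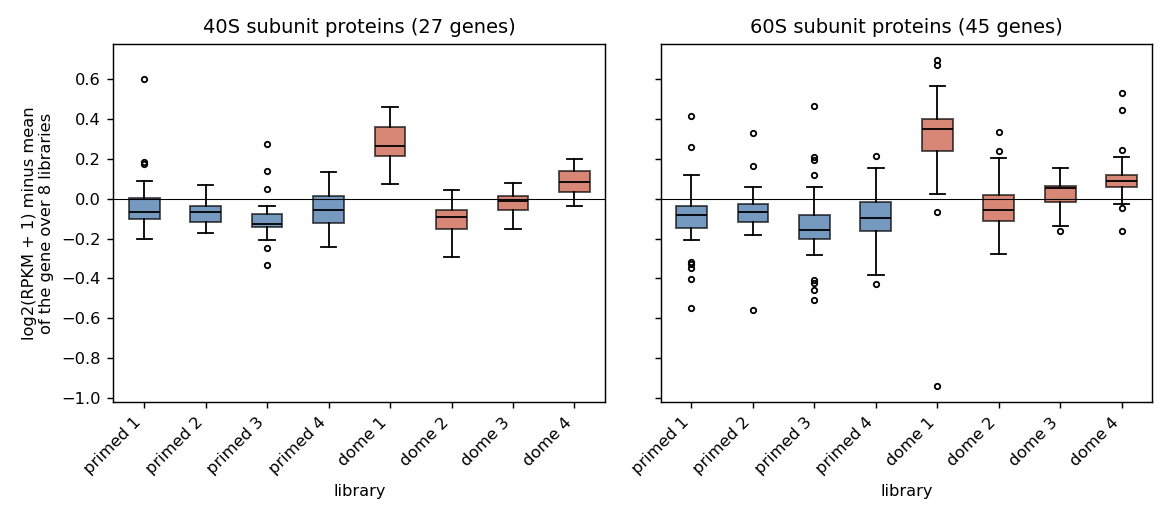
Deviation of each tested 40S (27) and 60S (45) gene from its own mean over the 8 libraries, on the log2(RPKM + 1) scale, by library (box: quartiles; line: median; points: genes beyond the whiskers). Dome-shaped replicate 1 has medians of 0.26 for 40S and 0.35 for 60S genes, above those of the other 7 libraries.

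**Figure D2:**
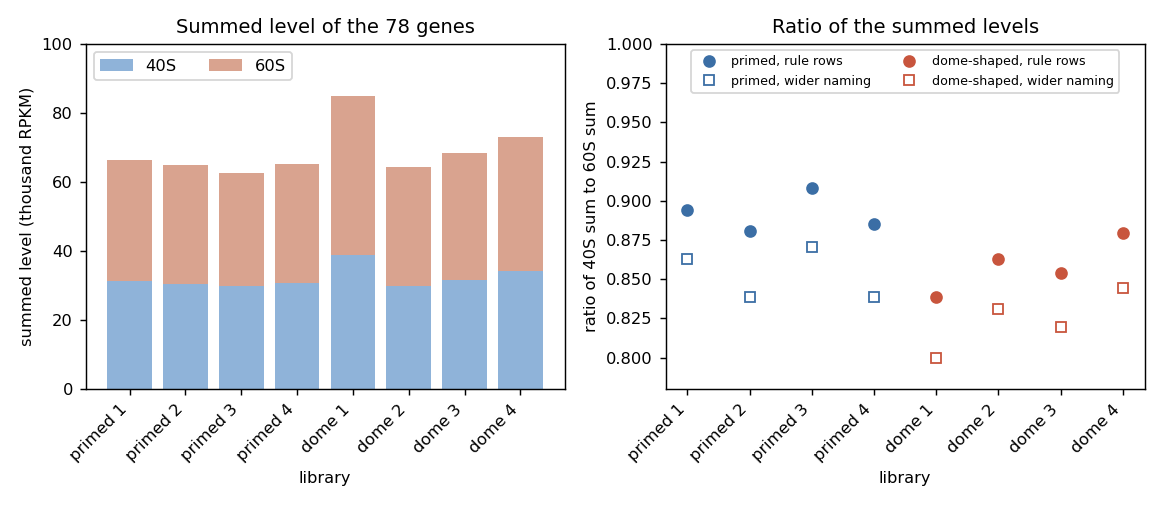
Left, RPKM summed over the 31 40S and 47 60S rows in each library; right, the 40S sum divided by the 60S sum, for the rows of the rule (filled) and after also counting rows outside it (open), on an axis that does not start at 0. The ratio of rule rows is 0.881 to 0.908 in primed and 0.839 to 0.879 in dome-shaped libraries, and the ranges overlap once the other rows are counted.

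Most ribosomal protein genes had a slightly higher mean level in the dome-shaped than in the primed libraries, and few of these differences passed the test. The median log2 fold change, dome-shaped minus primed, was 0.14 for 40S genes and 0.19 for 60S genes, against 0.026 over all 15597 rows tested; the 40S and 60S medians were 0.046 and 0.13 under quantile normalization, and -0.049 and 0.0041 when each library was centred on these genes themselves. The fitted change was above 0 for 23 of 27 tested 40S and 39 of 45 tested 60S genes, and for 53.2% of all rows. By limma with Benjamini-Hochberg adjustment over all rows, 5 of the 72 were called higher (1 of 27 for 40S and 4 of 45 for 60S) and 0 lower. The called share of 6.94% was close to the 6.38% of all rows called higher, so the count of calls did not set these genes apart, while 7.96% of all rows were called lower. At an unadjusted p under 0.05, 5 40S and 17 60S genes were higher and 0 were lower, against 16.2% and 15.4% of all rows.

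Every dome-shaped library lay above every primed library for 5 40S and 14 60S genes, 26.4% of the 72, where 11.5% of all rows did so. For 0 of them did every dome-shaped library lie below, where 10.7% of all rows did. The differences were small, with 62 of the 72 within 1.2-fold and 1 of at least 1.5-fold. The median standard error of a gene's log2 fold change was 0.097, and 0.15 over all rows. Without dome-shaped replicate 1 the medians were 0.070 for 40S and 0.11 for 60S genes, with 1 and 5 genes called higher and 0 lower, against 4.81% and 7.51% of all rows. The 40S count was 0 without any 1 of the 4 primed libraries or without dome-shaped replicate 3. The 60S count was 2 without primed replicate 1, dome-shaped replicate 2 or dome-shaped replicate 4, 1 without primed replicate 2 or dome-shaped replicate 3, and 0 without primed replicate 3 or 4. The share of all rows called higher moved in the same fits, to 5.08%, 2.44%, 3.31% and 3.12% without primed replicates 1 to 4 and to 2.56%, 2.83% and 8.26% without dome-shaped replicates 2 to 4. Whether the 2 subunits differed in their change was not tested.

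**Figure D3:**
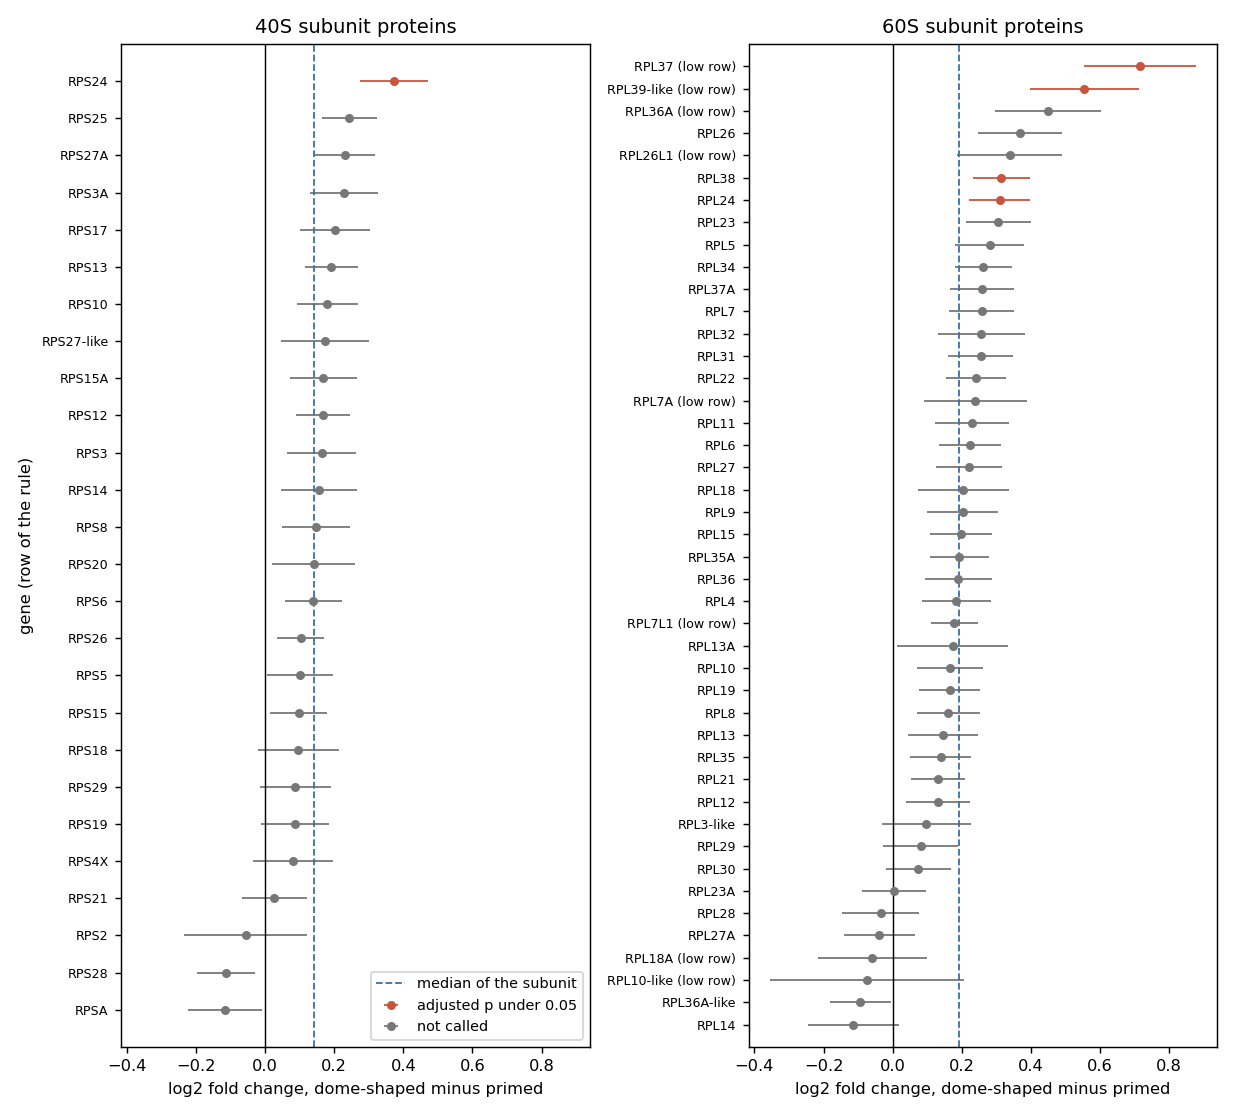
Fitted log2 fold change with its standard error for the tested 40S (left) and 60S (right) genes, all but 1 of each subunit; red marks an adjusted p under 0.05, the dashed line the subunit's median, and "low row" a row with a mean under 100 RPKM. The 5 called genes are RPS24, RPL37 (low row), RPL39-like (low row), RPL38 and RPL24.

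RPS24 was the only 40S gene called. Its product sits near the base of the small subunit, and mutations in it cause Diamond-Blackfan anaemia. Its level was 1320, 1388, 1316 and 1321 RPKM in primed replicates 1 to 4 and 2093, 1566, 1608 and 1703 RPKM in dome-shaped replicates 1 to 4. All dome-shaped libraries exceeded all primed ones, and replicate 1 was the highest (log2 change 0.37 with SE 0.10, adjusted p = 0.034). The change was 0.28 without that library (adjusted p = 0.021), and the call was lost without any 1 primed library (adjusted p = 0.065 to 0.083) or without dome-shaped replicate 3 (0.058). A second row outside the rule, also named for RPS24, stood at 307 ± 21.01 and 388 ± 70.9 RPKM without overlap (log2 fold change 0.33, adjusted p = 0.096).

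RPS3 and RPS6 were not called. RPS3, which lines the entry channel of the messenger RNA, had 1477, 1490, 1363 and 1474 RPKM in the primed and 1948, 1419, 1605 and 1568 RPKM in dome-shaped libraries (log2 change 0.16 with SE 0.10, adjusted p = 0.29). The groups overlapped because dome-shaped replicate 2 lay below 3 of the primed libraries. RPS6, the substrate of S6 kinases downstream of mTOR, was at 1207, 1170, 1131 and 1170 RPKM and at 1475, 1183, 1213 and 1300 RPKM (log2 change 0.14 with SE 0.08, adjusted p = 0.28). Dome-shaped replicate 2 lay within the primed range of RPS6 and the other 3 lay above it. Without dome-shaped replicate 1 the changes of RPS3 and RPS6 were 0.076 and 0.074. RPS12 and RPS14, the other 40S genes among the 3 most abundant, averaged 1896 ± 59.9 and 1797 ± 111 RPKM in the primed and 2132 ± 163 and 2015 ± 306 RPKM in dome-shaped ESCs.

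RPSA, a 40S protein also known as the laminin receptor precursor, had the lowest fitted change of the 72 tested genes. It had 1733, 1564, 1589 and 1509 RPKM in the primed and 1742, 1251, 1381 and 1565 RPKM in dome-shaped libraries, with dome-shaped replicates 2 and 3 below every primed library and replicate 1 above them. The log2 fold change was -0.12 (SE 0.11, adjusted p = 0.50), and -0.20 without dome-shaped replicate 1. When each library was centred on the median of the ribosomal protein genes, which lowered the median over all rows from 0.026 to -0.16, RPSA was lower than the other members (-0.30, adjusted p = 0.017), and so was RPS28 (-0.30, adjusted p = 0.027; named after its values were seen). Under that centring 324 rows were called higher (2.08%) and 2140 lower (13.7%). Among the 40S rows near to no change were RPS21 (0.03) and the rule's row of RPS2 (-0.06), which averaged 134 RPKM. A higher RPS2 row outside the rule averaged 721 ± 73.4 and 761 ± 85.7 RPKM (log2 fold change 0.08, adjusted p = 0.65). Another stood at 571 ± 228 and 772 ± 99.3 RPKM (0.56, adjusted p = 0.27). The changes of RPS21 and the rule's RPS2 row turned sign when single libraries were left out. That of RPS21 did so also under quantile normalization and the centring.

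RPL38 and RPL24 were the called 60S genes with a row of high level. RPL38, whose loss in mice alters the translation of Hox messenger RNAs and the skeletal pattern, had 805, 746, 750 and 731 RPKM in the primed and 1084, 856, 909 and 936 RPKM in dome-shaped libraries. The groups did not overlap (log2 change 0.31 with SE 0.08, adjusted p = 0.036). The protein match of this RPL38 row had 85.96% identity, and another RPL38 row averaged 225 RPKM. When identity of at least 95% was required, RPL38 was read from that other row and stayed called (0.47, adjusted p = 0.026). RPL24, which forms part of a bridge between the subunits and is deleted in part in the Belly spot and tail mouse, had 873, 864, 832 and 805 RPKM and 1231, 960, 978 and 1032 RPKM (log2 change 0.31 with SE 0.09, adjusted p = 0.047). Both kept their call without dome-shaped replicate 1 (0.25 and 0.23, adjusted p = 0.036 and 0.038). The call of RPL38 was lost without primed replicate 2, 3 or 4 or dome-shaped replicate 3 or 4 (adjusted p = 0.054 to 0.10), and that of RPL24 without any 1 library other than dome-shaped replicate 1 (adjusted p = 0.060 to 0.11).

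The remaining called rows were low. The row named for RPL37 held 10.7, 7.18, 8.08 and 7.96 RPKM in the primed and 18.2, 13.2, 11.7 and 15.4 RPKM in dome-shaped libraries, with no overlap (log2 change 0.72 with SE 0.16, adjusted p = 0.021). The abundant RPL37 row, which lay outside the rule, was at 1308 ± 70.9 and 1419 ± 212 RPKM (log2 fold change 0.11, adjusted p = 0.53) and was far above the called row. The row matching RPL39-like held 25.2, 29.0, 20.2 and 22.2 RPKM in the primed and 47.9, 33.8, 32.3 and 30.7 RPKM in dome-shaped libraries (log2 change 0.55 with SE 0.16, adjusted p = 0.046). RPL39 lines the exit tunnel for the nascent chain, and its paralog RPL39L is best known from the testis, but a paralog and a copy of the parent gene cannot be told apart by the match alone. The call of the RPL37 row was lost without primed replicate 2, 3 or 4 (adjusted p = 0.054 to 0.065) and that of the RPL39-like row without any 1 library except dome-shaped replicate 4 (adjusted p = 0.053 to 0.11). Among the 63 members with a mean of at least 100 RPKM, 3 were called, RPS24, RPL38 and RPL24. Their share of 4.76% was below the 6.38% of all rows called higher.

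**Figure D4:**
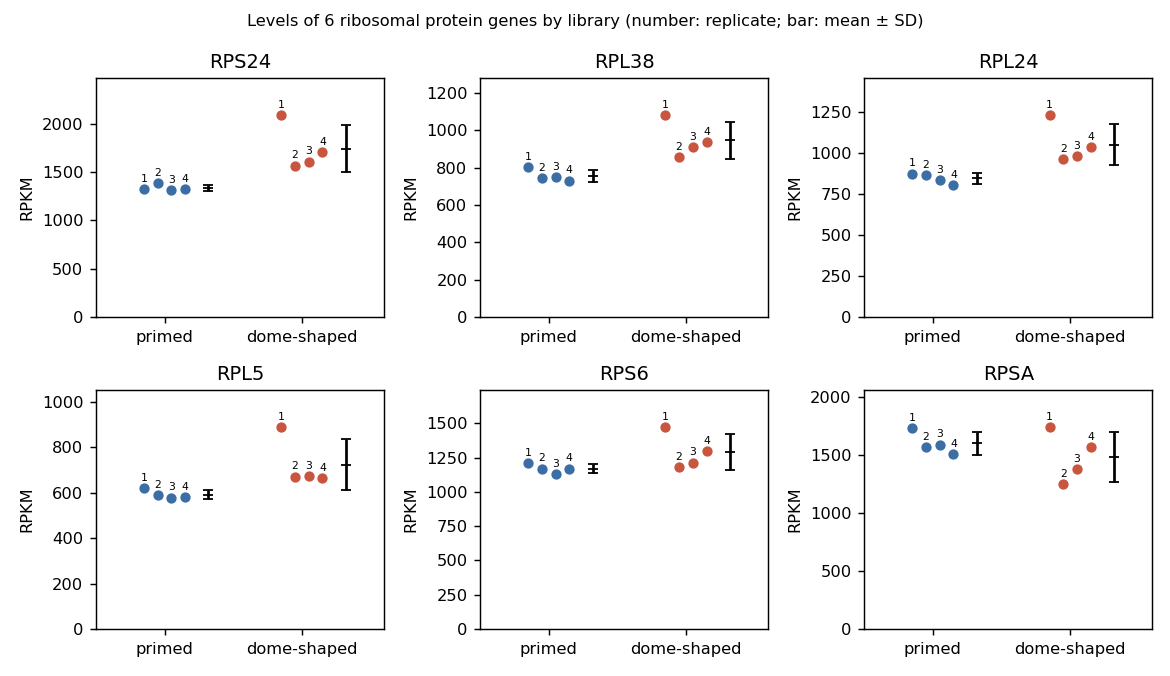
RPKM of 6 members in each of the 4 primed and 4 dome-shaped libraries (numbers: replicates, which have no order; bars: mean ± SD). RPS24, RPL38, RPL24 and RPL5 do not overlap between the groups, RPS6 and RPSA do, and dome-shaped replicate 1 is the highest library in each panel.

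RPL5 and RPL11 enter the large subunit together with 5S ribosomal RNA. RPL5 had 619, 589, 578 and 580 RPKM in the primed and 890, 671, 673 and 663 RPKM in dome-shaped libraries, without overlap (log2 change 0.28 with SE 0.10, adjusted p = 0.092). RPL11 had 1346, 1364, 1208 and 1216 RPKM and 1835, 1317, 1438 and 1463 RPKM, with dome-shaped replicate 2 inside the primed range (log2 change 0.23 with SE 0.11, adjusted p = 0.18). Without dome-shaped replicate 1 the changes of RPL5 and RPL11 were 0.18 and 0.13.

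Among the most abundant 60S genes, RPL10, which completes the peptidyl transferase region late in assembly, averaged 1709 ± 87.8 RPKM in the primed and 1927 ± 226 RPKM in dome-shaped ESCs. RPL13A, a subunit protein also released to silence inflammatory messenger RNAs, averaged 1605 ± 256 and 1816 ± 355 RPKM, and RPL4, which reaches into the exit tunnel, 1479 ± 37.0 and 1693 ± 239 RPKM. Their log2 fold changes were 0.17, 0.17 and 0.18, and none passed the test (adjusted p = 0.24 to 0.49); without dome-shaped replicate 1 they were 0.10, 0.053 and 0.096. The 60S genes nearest to no change were RPL23A, at the tunnel exit (260 ± 10.4 and 262 ± 33.5 RPKM), RPL28 (316 ± 29.9 and 309 ± 42.2 RPKM) and RPL27A (1144 ± 109 and 1116 ± 127 RPKM). The signs of these last 3 changed when single libraries were left out. RPL23A had the most rows, 19, and its next-highest row averaged 180 RPKM.

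Rows named for paralogs were compared, some of them beside their partners. RPL26 had 1222, 1193, 1165 and 1186 RPKM in the primed and 2001, 1324, 1414 and 1496 RPKM in dome-shaped libraries (log2 change 0.37 with SE 0.12, adjusted p = 0.071; 0.24 and 0.038 without dome-shaped replicate 1). RPL26L1, its paralog, had 25.7, 41.8, 27.1 and 25.2 RPKM and 39.1, 38.2, 36.2 and 35.8 RPKM (log2 change 0.34 with SE 0.15, adjusted p = 0.16), and without primed replicate 2, the highest library, it was called (0.50, adjusted p = 0.017). The groups were thus apart for RPL26 and overlapped for RPL26L1 through that 1 library. RPL7 averaged 1365 ± 88.7 and 1638 ± 186 RPKM (0.26, adjusted p = 0.097), and RPL7L1, a nucleolar assembly protein in human cells, 77.7 ± 2.39 and 88.2 ± 5.59 RPKM (0.18, adjusted p = 0.11). The RPS27-like row was at 433 ± 57.8 and 488 ± 73.2 RPKM, the RPL3-like row at 250 ± 17.9 and 271 ± 52.9 RPKM and the RPL10-like row at 30.2 ± 4.204 and 30.5 ± 12.2 RPKM, all with overlapping groups. As for RPL39-like, the match alone cannot tell whether these rows, or the RPL36A-like row, are paralogs or copies of the parent gene.

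The RPL36A-like row stood at 107 ± 11.9 and 99.5 ± 5.38 RPKM (log2 fold change -0.09, adjusted p = 0.50). The abundant RPL36A row outside the rule was at 611 ± 55.0 and 764 ± 85.2 RPKM without overlap (0.32, adjusted p = 0.058), and the low RPL36A row of the rule at 7.01 ± 1.11 and 9.94 ± 1.601 RPKM (0.45, adjusted p = 0.080). RPL22L1, outside the rule, was at 346 ± 37.9 and 371 ± 19.1 RPKM (0.11, adjusted p = 0.44), and its partner RPL22 at 640, 637, 584 and 624 RPKM in the primed and 856, 694, 668 and 732 RPKM in dome-shaped libraries (0.24, adjusted p = 0.092). RPS4X, an X-linked gene with a Y-linked paralog, was at 830 ± 131 and 874 ± 85.4 RPKM (0.08, adjusted p = 0.67), with its highest value, 1025 RPKM, in primed replicate 3. The deposited table gave the RPS4X row the symbol of the Y-linked paralog.

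Some ribosomal proteins are made as fusions to ubiquitin or a related protein. RPS27A, fused to ubiquitin, had 1707, 1569, 1579 and 1587 RPKM in the primed and 2159, 1739, 1739 and 1951 RPKM in dome-shaped libraries, without overlap (log2 change 0.23 with SE 0.09, adjusted p = 0.11). FAU, fused to a ubiquitin-like protein and the source of RPS30, lay outside the rule at 649 ± 34.1 and 662 ± 52.8 RPKM (0.03, adjusted p = 0.84). The groups overlapped for FAU.

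The description rule missed 17 proteins whose most abundant row, of at least 100 RPKM, was described in other words, 14 of them replacing a lower row of the rule and 3 (RPL3, FAU and RPL22L1) adding a name. The highest of these were RPL3 (2119 ± 122 and 2313 ± 409 RPKM) and RPL7A (1608 ± 151 and 1846 ± 277 RPKM). None of the 17 was called by limma, 5 were higher at an unadjusted p under 0.05, 16 had a change above 0 and the median was 0.11. With these rows included, the set had 81 proteins, with medians of 0.12 for 40S and 0.18 for 60S. Of the 81, 4 were called higher (1 40S and 3 60S), a share of 4.94% against 6.38% of all rows. This inclusion was chosen after seeing the data. Of the 72 tested members, 6 had a second row at more than 0.5 of their own level, such as RPS3A (510 and 491 RPKM) and RPL5 (658 and 424 RPKM over all libraries), so reads may be divided between such rows. For RPS3A a still more abundant row lay outside the rule, at 1122 RPKM over all libraries. Its groups did not overlap (log2 fold change 0.24, adjusted p = 0.12). The row named for RPS10 also matched a diphosphoinositol polyphosphate phosphohydrolase.

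The balance of the subunits differed little between libraries. The 40S sum divided by the 60S sum was 0.894, 0.881, 0.908 and 0.885 in primed and 0.839, 0.863, 0.854 and 0.879 in dome-shaped replicates 1 to 4. The lowest primed and highest dome-shaped values nearly touched. After the rows outside the rule were counted the ratios were 0.863, 0.839, 0.871 and 0.839 in primed and 0.800, 0.831, 0.819 and 0.845 in dome-shaped libraries, which overlapped. By gene length, the medians of the members were 0.17 up to 500 bases (25 genes), 0.18 from 500 to 1000 bases (41) and 0.17 from 1000 to 2000 bases (6). Other rows in those length classes had medians of 0.025, 0.015 and 0.013.

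Genes that work beside the ribosome were then counted from lists, where 6.38% of all rows were called higher and 7.96% lower. Of the stalk proteins and RACK1, which docks kinases on the 40S subunit, 0 of 4 were called (median log2 fold change 0.09, and 0.04 without dome-shaped replicate 1). RPLP0 averaged 2095 ± 67.7 and 2392 ± 288 RPKM and RPLP1 1451 ± 49.9 and 1586 ± 149 RPKM, while RPLP2, named after its values were seen, had the lower mean in dome-shaped ESCs (316 ± 70.2 and 276 ± 135 RPKM, log2 change -0.28 with SE 0.28, adjusted p = 0.54). Of 16 tested other TOP messenger RNAs, which encode elongation factors, initiation factor subunits and similar products, 0 were called in either direction by limma and 6 were higher at an unadjusted p under 0.05. All 16 had a change above 0, with a median of 0.18, and 0.11 without dome-shaped replicate 1. Their most abundant members were HNRNPA1, a splicing regulator, at 2302 ± 122 and 2546 ± 113 RPKM (0.15, adjusted p = 0.21) and COX7C, a subunit of cytochrome c oxidase, at 1994 ± 56.5 and 2040 ± 316 RPKM (0.02, adjusted p = 0.92). COX7C turned sign under quantile normalization, under median-of-ratios scaling, under the centring and with single libraries left out, while HNRNPA1, RPLP0 and RPLP1 did so under the centring and RPLP1 also under quantile normalization.

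Ribosome biogenesis genes build and modify the ribosomal RNA and assemble the subunits. Of 59 tested, 0 were called higher and 1 lower, against 6.38% and 7.96% of all rows. The called gene was NHP2, a protein of the box H/ACA particles that guide pseudouridine formation (224 ± 7.86 and 189 ± 14.2 RPKM, log2 change -0.24 with SE 0.07, adjusted p = 0.048). The call of NHP2 was lost without any 1 library other than dome-shaped replicate 4 (adjusted p = 0.074 to 0.12). The median of the list was -0.10, and 0.02 without dome-shaped replicate 1, in which these genes lay 0.31 below their own means while the 40S and 60S genes lay 0.26 and 0.35 above theirs. In the other 7 libraries the list's deviation was between -0.050 and 0.091.

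Among 17 tested genes of mTOR signalling and TOP control, 2 were called higher and 0 lower, against 6.38% and 7.96% of all rows. EIF4EBP2, an inhibitor of the cap-binding protein eIF4E that mTOR inactivates, rose from 92.1 ± 4.59 to 120 ± 4.28 RPKM (log2 change 0.38 with SE 0.06, adjusted p = 0.0073). RPS6KA3, which encodes the kinase RSK2 downstream of ERK, rose from 9.10 ± 1.87 to 17.5 ± 3.15 RPKM (0.88, SE 0.17, adjusted p = 0.012). RPS6KA1, a paralog named after its values were seen, averaged 49.3 ± 3.30 and 37.6 ± 5.92 RPKM, with every dome-shaped library below every primed one (-0.39, SE 0.12, adjusted p = 0.051). The groups did not overlap for EIF4EBP2 and RPS6KA3 either, and the median of the list was 0.07.

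Subunits of the respiratory chain, listed here with those of ATP synthase, were also high in dome-shaped replicate 1. They are another set of short and abundant transcripts. Of 56 tested, 6 were called higher and 2 lower, against 6.38% and 7.96% of all rows, with a median of 0.15. The called genes included NADH dehydrogenase [ubiquinone] 1 alpha subcomplex subunit 12 (86.4 ± 1.79 to 115 ± 7.95 RPKM, log2 fold change 0.40, adjusted p = 0.0074) and ATP synthase subunit gamma (175 ± 5.55 to 217 ± 13.9 RPKM, 0.31, adjusted p = 0.018). NADH dehydrogenase [ubiquinone] 1 alpha subcomplex subunit 8 rose by 0.43 (adjusted p = 0.032) and NADH dehydrogenase [ubiquinone] iron-sulfur protein 4 by 0.40 (adjusted p = 0.030). In dome-shaped replicate 1 the list lay 0.23 above its own means, and the other TOP messenger RNAs 0.22. COX7C belongs to both lists. The stalk and RACK1 lay 0.20 above their own means in that library, and ribosome biogenesis genes below theirs, as given above; the source of these shifts was not tested. Centred on the ribosomal protein genes, the list medians were -0.098 for the stalk and RACK1, -0.0075 for other TOP messenger RNAs, -0.11 for mTOR and TOP control and -0.043 for the respiratory chain, all of the opposite sign, and -0.29 for ribosome biogenesis. The centring lowers the change of every row by the same amount, so these turns of sign follow from the centring itself.

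**Figure D5:**
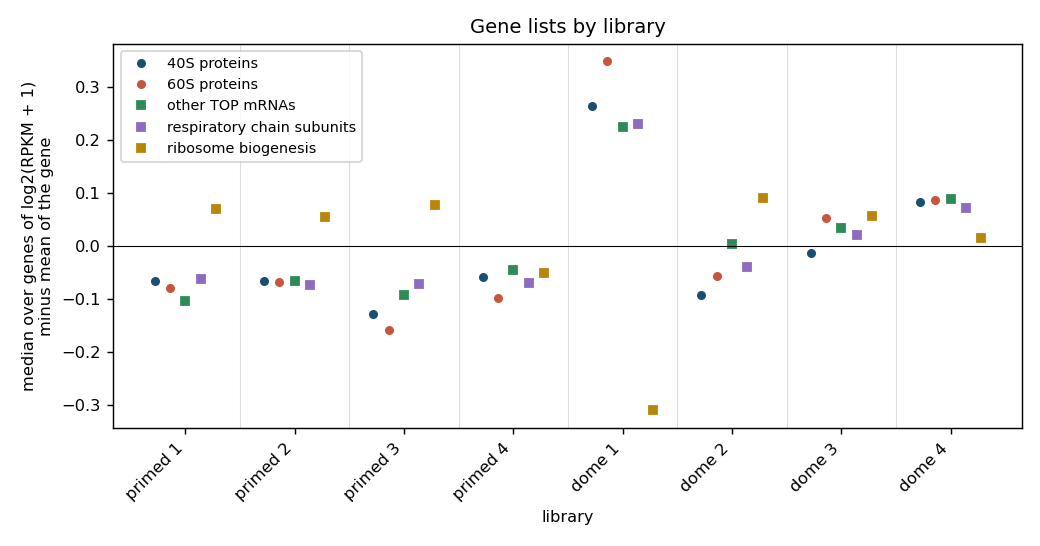
Median over the tested genes of a list of log2(RPKM + 1) minus the gene's mean over the 8 libraries, for 40S, 60S, other TOP messenger RNAs, respiratory chain and ribosome biogenesis genes. In dome-shaped replicate 1, 4 lists lie between 0.22 and 0.35 and ribosome biogenesis lies at -0.31.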

How the data were processed

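The authors deposited 1 table of RPKM values for the 8 libraries, with a percent identity for each best protein match. Reads were processed with HTSeq 0.6.1, TopHat2 2.0.9 and Bowtie2 2.0.6, per the submitters' processing notes. No coordinates are reported, since neither build nor annotation is given in the sources used here. Of 33138 rows, 17 were blank and left out. The columns of dome-shaped replicates 1, 2 and 3 lacked the ends of their titles and were matched by the part present; the columns of other samples numbered 0. RPKM multiplied by length came in steps that implied the reads per library (within a tolerance of 0.01 reads, 71.9% to 73.8% of those under 50 reads were whole, so depth was recovered but not counts). Replicate pairs differed beyond counting noise (chi-square per degree of freedom 10.5 to 77.9).

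Rows that reached 1 RPKM in at least 4 of 8 libraries (15597) were compared as log2(RPKM + 1) with limma 3.58.1 in R 4.3.3 (two-sided, mean trend, group as the only term); p-values were adjusted by Benjamini-Hochberg over all rows, with a threshold of 0.05; the pseudocount understates changes of low rows. The steps were tested on simulated data. Symbols came from the table, from RefSeq accessions or from match names. The members and lists were chosen with earlier results of these data known. Named members were all called ones, the 3 most abundant and the 3 nearest to no change of each subunit, RPL5, RPL11, RPS3, RPS6, RPSA, ubiquitin fusions and paralogs with their partners. From each related list up to 4 called genes were named, or else the 2 most abundant. RPL22, RPS28 and genes outside the rule's rows were named after their values were seen. Some genes that the rule takes are not reported here. Alternatives were pseudocounts of 0.1 and 0.5, quantile normalization, median-of-ratios scaling, no filter, a filter at a mean of 5 RPKM, centring on the members, summed copies, identity of at least 95%, a replicate block, each library left out, and wider naming, which was chosen after seeing the data.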

Additional observations from a re-analysis of the deposited data

Results flagged for a closer look

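Of 76 groups of 4 libraries that were screened, 8 were such that 1 library lay far from the other 3 relative to the range of the group; chance flags about 1 in 20 groups. RPS24 was highest in primed replicate 2 at 1388 RPKM, with the others between 1316 and 1321 RPKM. RPL5 was highest in dome-shaped replicate 1 at 890 RPKM (others 663 to 673 RPKM). Primed replicate 1 was highest for the rule's row of RPS2 at 200.1 RPKM (others 111 to 125 RPKM). In that library a more abundant RPS2 row outside the rule was lowest at 232 RPKM (others 650 to 719 RPKM). Another was highest there at 823 RPKM (others 651 to 717 RPKM). Primed replicate 1 was also highest for RPS27A at 1707 RPKM (others 1569 to 1587 RPKM), and lowest for the low RPL36A row at 5.35 RPKM (others 7.43 to 7.71 RPKM). Primed replicate 3 was lowest for RPS3 at 1363 RPKM (others 1474 to 1490 RPKM) and highest for RPS4X at 1025 RPKM (others 741 to 783 RPKM). RPL26L1 was highest in primed replicate 2 at 41.8 RPKM (others 25.2 to 27.1 RPKM).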

How the results depend on the processing

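The counts of called genes depended on the processing more than the direction did. Pseudocounts of 0.1 and 0.5, a mean of at least 5 RPKM, summed copies and 95% identity gave 1 40S gene called higher and 3 or 4 60S genes. They were not all the same genes: RPL24 lost its call with summed copies (adjusted p = 0.051). At 95% identity the RPL37 row dropped out, and RPL38 was read from another row and stayed called (0.47, adjusted p = 0.026). No filter gave 0 40S and 1 60S genes (2.96% of all rows were called higher), median-of-ratios scaling 1 and 1 (5.67% of all rows), and quantile normalization 1 and 6 (7.90%) with 1 40S gene, RPSA, lower (-0.22, adjusted p = 0.047). Centring on the members gave 0 40S genes higher and 2 lower with a median of -0.049, and 1 60S gene higher with a median of 0.0041. With the number after CES in the titles as a replicate block, 0 40S and 1 60S genes were higher (1.94% of all rows). Same-numbered pairs had deviations correlated at -0.098 to 0.12 over 5 pairs, and the other pairs at -0.22 to 0.20. With so few pairs, some sharing a library, these correlations cannot show whether the numbers mark related libraries. The main fit did not use the numbers. Leaving out 1 library gave 0 to 1 40S genes, 0 to 5 60S genes, and medians of 0.070 to 0.20 and 0.11 to 0.25. The centring turned the sign of RPS14 (-0.033), RPS12 (-0.022), RPS20 (-0.049), RPS21 (-0.16), RPL4 (-0.0041), RPL13A (-0.015), RPL10 (-0.021), RPL23A (-0.19), RPS3 (-0.026), RPS6 (-0.0498), RPS27-like (-0.016), RPL7L1 (-0.0103), RPL3-like (-0.091), RPS4X (-0.11), RPLP0 (-0.0048), RPLP1 (-0.065), HNRNPA1 (-0.043) and COX7C (-0.17), all small changes before it. Quantile normalization did so for RPS21 (-0.039), RPLP1 (-0.0012) and COX7C (-0.095), median-of-ratios scaling for RPL23A (-0.022) and COX7C (-0.0047), summed copies for RPL23A (-0.0044) and RPL27A (0.0027), 95% identity for RPL10-like (0.38) and the replicate block for RPL28 (0.011) and RPL10-like (0.073). With single libraries left out, signs turned for RPS21 (-0.041 to 0.085), RPS2 (-0.15 to 0.14), RPL23A (-0.071 to 0.073), RPL28 (-0.11 to 0.052), RPL27A (-0.10 to 0.026), RPL3-like (-0.019 to 0.20), RPL10-like (-0.26 to 0.23) and COX7C (-0.069 to 0.091). The cause was not tested, apart from the centring, which subtracts the members' own median. Depth limited only the low rows: the shallowest value of a member above 100 RPKM rested on about 758 reads.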
